A study of Mus musculus with 12 samples.

Results

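Described here are 37 genes that carry new proteins into the endoplasmic reticulum (ER), fold them there and answer when folding fails, the steps that follow signal recognition. They were taken by gene symbol from the array's platform annotation. They were measured by 58 of the 39429 gene probes, and all 58 passed the filter on dim probes that left 39239. A single probe measured 21 of the genes and several probes measured 16. All but 3 of the 58 probes were above background on all 12 arrays, and those 3 were above it on 11. The brightest probe stood for each gene, as for the 21643 genes of the whole series.

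Proteins that leave the cell or enter its membranes start their route at the ER. The signal recognition particle brings a ribosome to the Sec61 channel, the new chain passes through, its signal peptide is cut off, and chaperones and disulfide enzymes fold it. When unfolded chains build up, the sensors encoded by Ern1, Eif2ak3 and Atf6 start the unfolded protein response, which raises the chaperones and, in prolonged stress, the factor CHOP, encoded by Ddit3. In the brain this machinery makes receptors, channels, adhesion proteins and the proteolipids of myelin.

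RNA came from 12 mice at postnatal day 14, 4 each of Bl6, CSS1 and CSS2, and each was hybridised in 2 colours against pooled Bl6 RNA. Bl6 stands for C57BL/6J. The names CSS1 and CSS2 were read as chromosome substitution strains, in which 1 chromosome of a donor strain lies on the Bl6 background. The labels give neither the donor nor the sex of the mice and name no treatment, and the tissue is labelled hippocampus while the design text speaks of brains. The series' title names Srp9, a subunit of the signal recognition particle, as a susceptibility gene for febrile seizures, and the comparisons ask which genes differ in either strain. Median signal ran from 188 to 408 intensity units per array, and the share of gene probes above background from 89% in CSS2 mouse 1 to 99.7%. All 9 markers of hippocampal neurons were above background on all 12 arrays, Prox1 and Neurod6 among them. Every value below is the log2 ratio of a mouse's RNA over the Bl6 pool with the fitted effect of the dye removed, and a difference is 1 strain's mean minus another's.

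The control regions of several of these genes carry the ER stress response element (ERSE), the sequence through which ATF6 raises the chaperones. They are shown because they tell which members carry the element. RefSeq promoter windows of GRCm38.p6, from 250 bases before to 50 after the start, were at hand for 30 of the 37 genes, and not for Sec61a1, Ssr2, Spcs3, Sec11c, Hyou1, Sil1 and Atf6. The ERSE, CCAAT and CCACG parted by any 9 bases and searched on both strands, was found in 6 of the 30, or 20%, against 0.119% of 32851 promoter windows. These 6 were Hspa5, Hsp90b1, Calr, Canx, Dnajc3 and Pdia6, and Hsp90b1 held 2 copies. The related ERSE-II, ATTGG and CCACG parted by any 1 base, was found in Herpud1 and Dnajb11, against 0.0365% of windows. No copies of the motifs searched overlapped. The sequences below run 5′ to 3′ along the gene's strand, end before the start site, and have the motif in capitals. The first copy is shown for Hsp90b1, the copy in Calr is on the opposite strand, and the Dnajb11 copy lies after the start and is not printed.
Hspa5: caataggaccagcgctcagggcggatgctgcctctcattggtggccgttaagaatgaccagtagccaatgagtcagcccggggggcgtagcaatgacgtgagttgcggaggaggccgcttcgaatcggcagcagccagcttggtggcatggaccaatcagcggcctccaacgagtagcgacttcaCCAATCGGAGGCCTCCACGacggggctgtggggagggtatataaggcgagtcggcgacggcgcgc
Hsp90b1: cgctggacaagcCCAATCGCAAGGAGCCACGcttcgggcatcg
Calr: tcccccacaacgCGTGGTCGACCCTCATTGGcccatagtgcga
Canx: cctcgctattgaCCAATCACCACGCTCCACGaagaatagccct
Dnajc3: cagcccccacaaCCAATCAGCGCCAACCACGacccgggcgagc
Pdia6: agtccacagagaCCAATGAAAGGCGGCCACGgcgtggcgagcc
Herpud1: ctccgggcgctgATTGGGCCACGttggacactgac
The Hspa5 stretch is chr2:34771840-34772089 on the plus strand, and the Herpud1 stretch is chr8:94386365-94386399 on the plus strand. Hsp90b1 is shown at chr10:86705626-86705668, Calr at chr8:84847063-84847105 and Canx at chr11:50325788-50325830, all on the minus strand. Dnajc3 is shown at chr14:118937815-118937857 and Pdia6 at chr12:17266479-17266521, both on the plus strand.

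The route as a whole lay close to its Bl6 level in both strains. The 1 exception, Dnajc10, rested on the brightest of its 3 probes. In CSS1 none of the 37 genes passed the test, which was limma with Benjamini-Hochberg adjustment over all 39239 probes at 0.05, and 2.03% of all genes did. In CSS2 only Dnajc10 of the 37 passed, and it was lower, against 1.04% of all genes in either direction and 0.379% lower. In CSS1 against CSS2 Dnajc10 alone passed again, higher in CSS1, against 0.97% in either direction and 0.374% higher. At an unadjusted p below 0.05 there were 6, 3 and 6 of the 37 in these comparisons, against 12.8%, 9.83% and 8.5% of all genes. Both comparisons with Bl6 use the same 4 Bl6 mice, so their values are not independent.

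The median difference over the 37 genes was 0.00713 in CSS1 and 0.048 in CSS2, beside -0.00172 and 0.00375 over all genes. The CSS1 median moved by over 1.5 times with any of the 8 Bl6 and CSS1 mice left out. It lay below 0 without CSS1 mouse 3 (-0.00419) or Bl6 mouse 5 (-0.00364), and was highest without CSS1 mouse 6 (0.0349). The CSS2 median was 0.0211 without CSS2 mouse 10. The difference was above 0 for 20 of 37 in CSS1, against 48.7% of all genes, and for 27 of 37 in CSS2, against 52.5%. In CSS1 against CSS2 it was above 0 for 10 of 37, against 47.7%. The median over the members in single mice ran from -0.01 to 0.01 in Bl6, from -0.04 to 0.06 in CSS1 and from 0.01 to 0.08 in CSS2, so that the strains overlapped. The 95% interval of the difference lay within 0.5 on the log2 scale, or 1.41-fold, for 36 of 37 genes in each comparison. The gene outside was Dnajb9 in CSS1 and Dnajc10 in CSS2 and between the strains. Within 0.3, or 1.23-fold, lay 32 genes in CSS1, 33 in CSS2 and 30 between the strains. Of the 16 genes with several probes, 14 in CSS1 and 15 in CSS2 had probes whose differences lay within 0.2 of each other, and Dnajc10 was the 1 that did not in CSS2. That bound is wide, as 91.9% and 94.6% of the 37 genes lay within 0.2 of Bl6. The median range between probes was 0.0769 and 0.0604, beside a median size of difference of 0.0531 and 0.0574 over the 37 genes. Probes of a gene could thus differ in sign, as for Ssr3 in CSS1 (-0.04 and 0.07).

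**Figure D1:**
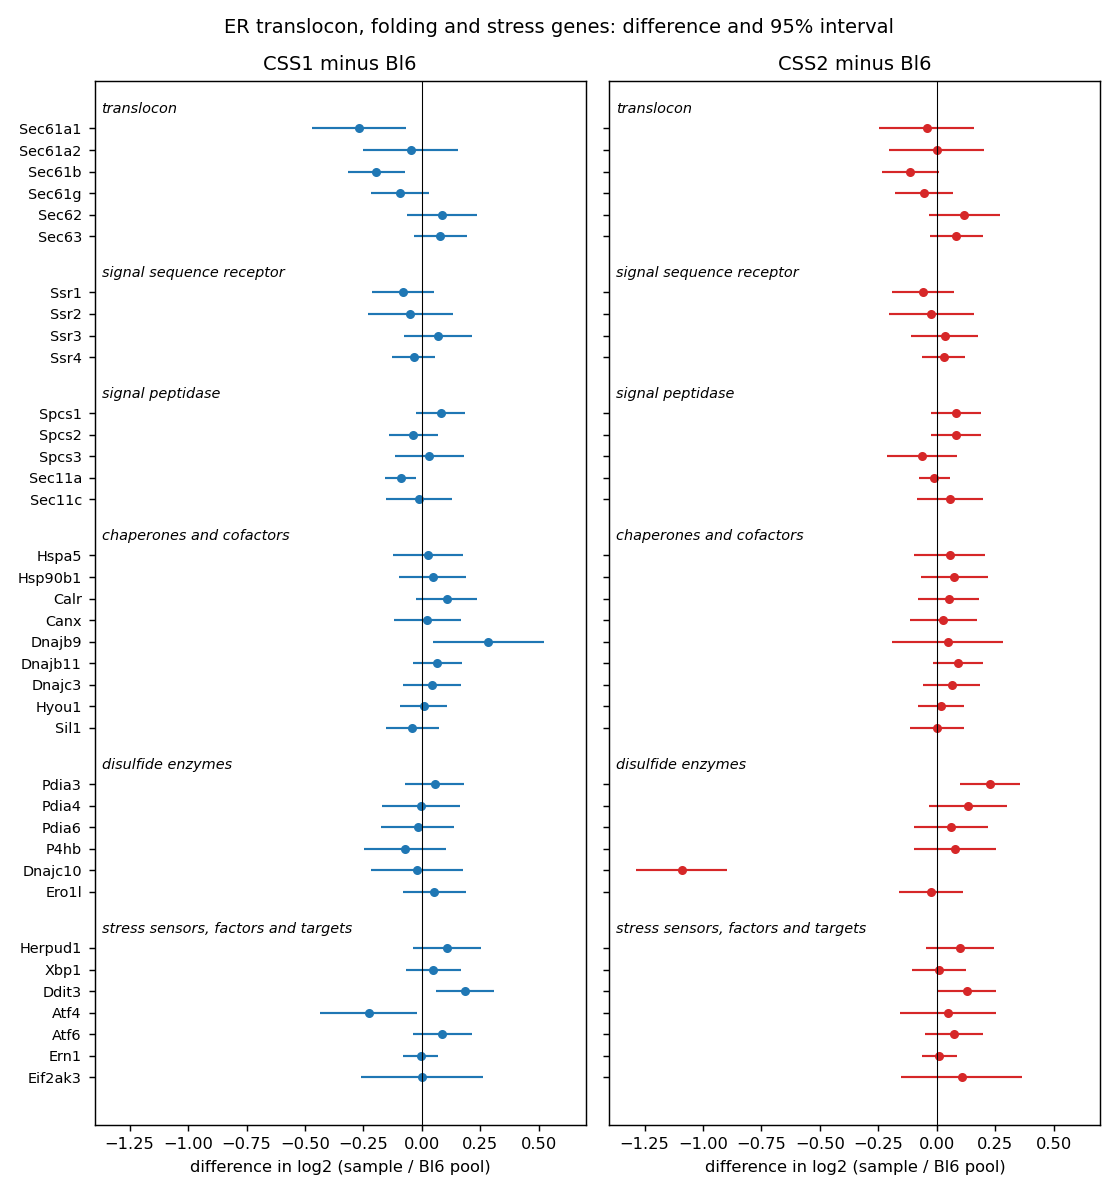
Difference of each of the 37 ER genes in CSS1 (left) and CSS2 (right) from Bl6, on the log2 scale of sample over Bl6 pool, as points with the 95% interval of the limma fit, in 6 role classes. Dnajc10 in CSS2, at -1.09 on its brightest probe, stands outside the range of -0.27 to 0.28 that holds all other points.

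**Figure D2:**
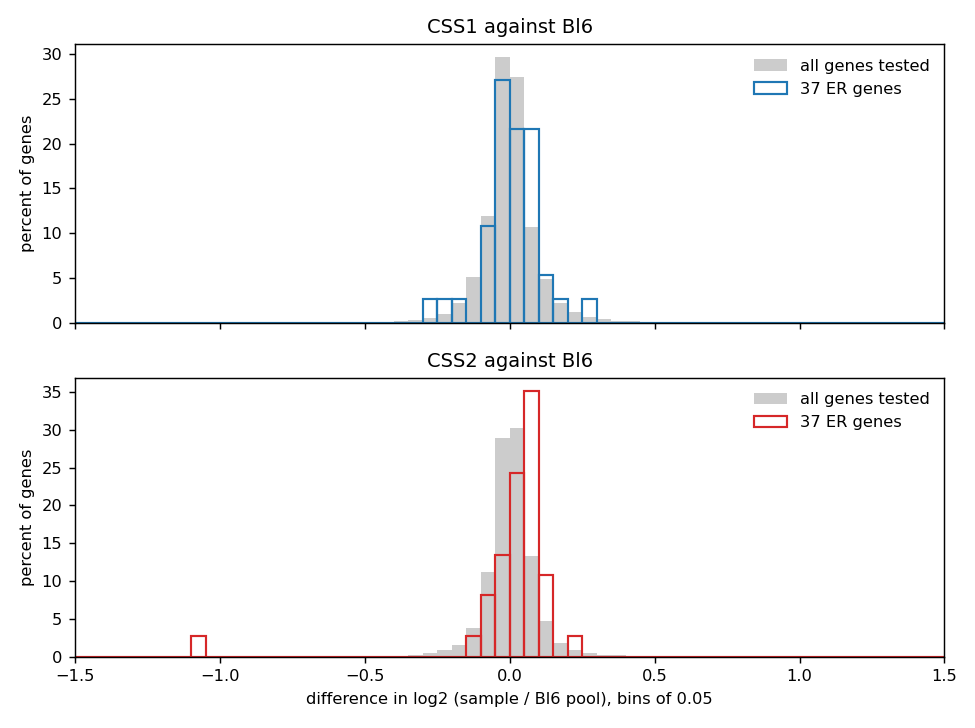
Share of genes (percent) by the size of their difference from Bl6, in bins of 0.05 on the log2 scale, for all genes tested (grey) and the 37 ER genes (outlined). The median size was 0.05 for the ER genes and 0.04 for all genes in CSS1, and 0.06 and 0.04 in CSS2, and genes beyond the ends of the axis are not drawn.

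Dnajc10 encodes ERdj5, a disulfide reductase that works with the chaperone BiP to open wrongly joined chains for degradation, and its gene lies on chromosome 2. Its brightest probe was at -0.01, -0.15, -0.27 and 0.09 in Bl6 mice 2, 5, 8 and 11. It was at -0.16, -0.13, 0.08 and -0.21 in CSS1 mice 3, 6, 9 and 12, and at -1.30, -1.24, -1.05 and -1.10 in CSS2 mice 1, 4, 7 and 10. All 4 CSS2 mice lay far below the other 8, which overlapped. The mean was -0.08 ± 0.16 in Bl6, -0.10 ± 0.13 in CSS1 and -1.17 ± 0.12 in CSS2 (SD, n = 4). On its brightest probe Dnajc10 thus lay 2.13-fold lower in CSS2, by a difference of -1.09 ± 0.09 (SE, limma adjusted p = 0.000114). This was the difference of rank 11 by size among the 21643 genes. CSS1 differed from Bl6 by -0.02, with a 95% interval from -0.22 to 0.17, and from CSS2 by 1.07 ± 0.09 (SE, limma adjusted p = 6.95e-05).

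The other probes of Dnajc10 did not show a fall of that size. The second probe was at 0.22, 0.09, -0.04 and 0.12 in the 4 Bl6 mice and at -0.06, 0.00, -0.16 and 0.03 in the 4 CSS2 mice, so that the strains overlapped. Its difference was -0.14 ± 0.07 (SE, limma adjusted p = 0.622). The third and dimmest probe, above background on 11 of 12 arrays, was at 0.06, -0.02, 0.03 and -0.01 in Bl6 and at -0.08, -0.10, -0.24 and -0.06 in CSS2. The strains did not overlap there, and the difference was -0.13 ± 0.05 (SE, limma adjusted p = 0.321). With the mean over the 3 probes, Dnajc10 was at -0.46 and still past the threshold (limma adjusted p = 0.000822). That mean includes the brightest probe, and neither of the other probes passed alone. The labels do not say which part of the transcript each probe covers, and why the probes differ was not tested.

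**Figure D3:**
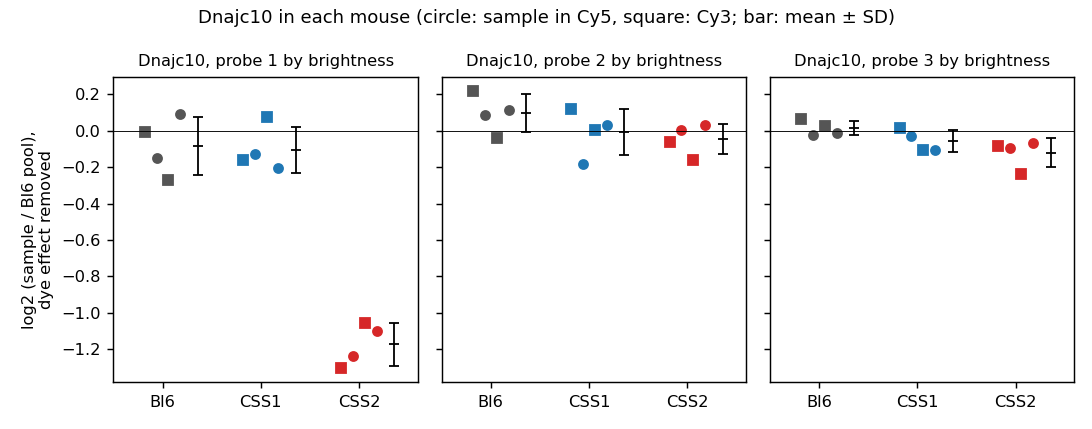
Log2 ratio of sample over Bl6 pool for the 3 probes of Dnajc10 in each mouse, by strain, with circles for samples in Cy5, squares for samples in Cy3 and bars for mean ± SD (n = 4). On the brightest probe the CSS2 mice, at -1.30 to -1.05, lie below the other 8, while all mice lie between -0.24 and 0.22 on the other probes.

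The promoter stretch of Dnajc10 is shown as that of the only member past the threshold. It is chr2:80315216-80315465 on the plus strand in GRCm38.p6, the 250 bases before the start used for the promoter windows. Its bases are those of that reference build, and the sequence in the CSS2 mice was not at hand. The gene annotation used for chromosomes puts the start of Dnajc10 earlier, at 80315446, so the last bases shown lie inside the annotated gene. The stretch held neither ERSE, ERSE-II, the motif TGACGTGG nor the motif TGATGNAA.
Dnajc10: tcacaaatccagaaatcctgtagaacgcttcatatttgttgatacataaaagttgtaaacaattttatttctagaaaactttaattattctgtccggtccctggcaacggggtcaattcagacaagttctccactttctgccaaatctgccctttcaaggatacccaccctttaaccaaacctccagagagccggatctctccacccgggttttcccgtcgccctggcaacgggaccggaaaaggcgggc
TGACGTGG, the element bound by XBP1, was found in 0 of the 30 member windows and 0.676% of all windows, and TGATGNAA, to which ATF4 binds, in 1 of 30, Herpud1, and 3.97% of all.

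Of the 37 genes, 4 lie on chromosome 2, the chromosome that names CSS2, where 3.93% of 1935 genes passed in CSS2. Pdia3, which encodes ERp57 and forms disulfides in glycoproteins held by calnexin, was at -0.05, -0.09, -0.10 and -0.15 in the Bl6 mice, at 0.05, -0.10, -0.15 and 0.04 in the CSS1 mice and at 0.23, 0.16, 0.01 and 0.13 in the CSS2 mice. Every CSS2 mouse lay above every Bl6 mouse. The difference was 0.23 ± 0.06 (SE) and missed the threshold (limma adjusted p = 0.129). With consecutive mouse numbers as a block in place of the dye term it passed (adjusted p = 0.0416). Hspa5 and Sec61a2, the remaining chromosome 2 members, differed by 0.06 ± 0.07 and 0.00 ± 0.09 (SE) in CSS2. Among the 10 genes measured on either side of Dnajc10, 1 of 20 passed in CSS2, the adjacent Frzb, a secreted Wnt antagonist, and it was higher by 0.65. Another of these 20 differed by 0.61 and did not pass. Among the 10 on either side of Pdia3, 2 of 20 passed, both higher. The differences of these 20 included 0.23, 0.25, 0.27, 0.29, 0.43 and 0.47, and those below 0 were -0.14, -0.09, -0.03 and -0.006. Of all genes, 95.6% lay within 0.2 of Bl6 in CSS2. The 1 member on chromosome 1, Atf6, is described with the sensors.

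The channel itself is built from Sec61a1 or its relative Sec61a2 with Sec61b and Sec61g, and Sec62 and Sec63 help chains that enter after synthesis. None of these 6 passed in either strain. Above Bl6 lay 2 of the 6 in CSS1 and 2 in CSS2, against 48.7% and 52.5% of all genes. Their median difference was -0.07 in CSS1 and -0.02 in CSS2. Sec61b, the beta subunit, was at 0.16, 0.04, 0.07 and 0.05 in Bl6, at -0.05, -0.17, -0.17 and -0.08 in CSS1 and at -0.11, 0.12, -0.05 and -0.10 in CSS2. All CSS1 mice lay below all Bl6 mice, and the CSS2 mice overlapped both. The difference in CSS1 was -0.19 ± 0.06 (SE, limma adjusted p = 0.133), and it passed when CSS2 mouse 4 was left out of the shared estimate of spread (adjusted p = 0.0429). The second Sec61b probe differed by -0.01. Sec61a1, the main channel subunit, had the lowest difference in CSS1, at -0.27 ± 0.09 (SE, limma adjusted p = 0.238), and is named after its value was seen. It was at 0.01, 0.04, -0.09 and 0.15 in Bl6 and at -0.22, -0.35, -0.04 and -0.35 in CSS1, with CSS1 mouse 9 among the Bl6 values. Sec61a2 was at -0.07, -0.10, -0.14 and 0.16 in Bl6, at -0.11, -0.23, 0.14 and -0.14 in CSS1 and at -0.22, -0.04, 0.08 and 0.03 in CSS2. The mice of all 3 strains overlapped. It differed by -0.05 in CSS1, where Sec62 and Sec63 differed by 0.09 and 0.08.

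The signal sequence receptor (Ssr1 to Ssr4), also called the translocon-associated protein complex, sits beside the channel and helps some chains through. Its 4 genes differed by -0.08 to 0.07 in CSS1 and by -0.06 to 0.03 in CSS2, and none passed. Ssr1 was at 0.05, 0.03, 0.00 and 0.15 in Bl6, at 0.01, -0.06, 0.10 and -0.15 in CSS1 and at -0.13, 0.05, 0.04 and 0.04 in CSS2. The strains overlapped, and its 3 probes ran from -0.08 to 0.12 in CSS1.

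Signal peptidase, with the catalytic subunits Sec11a and Sec11c and the subunits Spcs1 to Spcs3, cuts off the signal peptide. Its 5 genes differed by -0.09 to 0.08 in CSS1 and by -0.06 to 0.08 in CSS2, and none passed. Sec11a was at 0.06, 0.05, -0.02 and 0.04 in Bl6, at -0.05, -0.06, -0.07 and -0.07 in CSS1 and at 0.07, 0.00, -0.01 and 0.02 in CSS2. The CSS1 mice lay below all mice of both other strains. The difference from Bl6 was -0.09 ± 0.03 (SE, limma adjusted p = 0.221), and the second Sec11a probe gave -0.12. Spcs1 was at 0.04, 0.00, -0.02 and -0.07 in Bl6, at 0.06, 0.19, 0.06 and -0.03 in CSS1 and at 0.02, 0.12, 0.10 and 0.04 in CSS2, with a difference of 0.08 in both strains and overlap in both.

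The chaperones gave 9 genes, of which 8 lay above Bl6 in CSS1 and 9 in CSS2, against 48.7% and 52.5% of all genes. On their brightest probes they lay above by at most 0.28 in CSS1 and 0.09 in CSS2. None passed. Hspa5 encodes BiP, the main Hsp70 chaperone of the ER and the usual measure of ER stress. It was at -0.03, 0.00, 0.04 and -0.01 in Bl6, at 0.17, -0.13, 0.05 and 0.01 in CSS1 and at -0.01, 0.08, -0.06 and 0.21 in CSS2. The CSS1 and CSS2 mice lay on both sides of the Bl6 mice. The differences were 0.03 in CSS1, with a 95% interval from -0.13 to 0.18, and 0.06 in CSS2, with an interval from -0.10 to 0.21. Hsp90b1 (GRP94), the lectin chaperones Calr and Canx, the BiP cofactors Dnajc3 and Sil1 and the Hsp110-like Hyou1 differed by -0.04 to 0.11 in CSS1 and by 0.00 to 0.08 in CSS2.

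Dnajb9, which encodes ERdj4, a BiP cofactor made under XBP1, had the highest difference in CSS1 among the 37 genes. It was at -0.20, 0.00, 0.06 and -0.03 in Bl6, at 0.21, 0.48, 0.36 and -0.10 in CSS1 and at -0.12, 0.01, 0.09 and 0.03 in CSS2. Of the CSS1 mice, 3 lay above all Bl6 mice and mouse 12 lay among them. The difference was 0.28 ± 0.11 (SE, limma adjusted p = 0.311), and the second probe gave 0.21. Without CSS1 mouse 12 it was 0.41 and passed (adjusted p = 0.0247). Dnajb11, the cofactor ERdj3, was at 0.00, 0.01, 0.01 and -0.15 in Bl6, at 0.06, 0.12, -0.06 and 0.03 in CSS1 and at 0.09, 0.10, 0.03 and 0.02 in CSS2. The CSS2 mice lay above the Bl6 mice by a difference of 0.09 ± 0.05 (SE, limma adjusted p = 0.646). The second probe was of opposite sign in both strains, at -0.08 in CSS2 and at -0.15 in CSS1, where the brightest gave 0.07.

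Among the 6 disulfide enzymes, those other than Dnajc10 and Pdia3 differed by -0.07 to 0.05 in CSS1 and by -0.02 to 0.13 in CSS2. These are the isomerases Pdia4, Pdia6 and P4hb and the oxidase Ero1l, and none passed. The CSS2 value of Pdia4, 0.13 ± 0.08 (SE, limma adjusted p = 0.683), was the highest of the 4.

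The sensors and factors of the unfolded protein response gave 7 genes. All 7 lay above Bl6 in CSS2, by 0.01 to 0.13, against 52.5% of all genes, and 5 of 7 did in CSS1, against 48.7%. None passed in either strain. Of the sensors, Ern1 (IRE1) differed by 0.00 ± 0.03 in CSS1 and 0.01 ± 0.03 in CSS2 (SE), and Eif2ak3 (PERK) by 0.00 ± 0.12 and 0.11 ± 0.12. Eif2ak3 had the largest spread between mice of a strain among the members, an SD of 0.182 against a median of 0.0899 for the 37 genes. Atf6, on chromosome 1, was at 0.07, -0.03, -0.11 and -0.01 in Bl6, at 0.08, 0.20, 0.06 and -0.08 in CSS1 and at 0.01, 0.06, 0.09 and 0.06 in CSS2. The strains overlapped on this probe. On its dimmer second probe the CSS1 mice, at 0.06 to 0.24, lay above the Bl6 mice, at -0.12 to 0.02, with a difference of 0.17 ± 0.05 (SE, limma adjusted p = 0.12).

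Xbp1, whose transcript IRE1 splices, was at 0.07, 0.01, 0.01 and -0.01 in Bl6, at 0.11, 0.03, 0.15 and -0.02 in CSS1 and at -0.09, 0.10, -0.02 and 0.12 in CSS2. The mice of all 3 strains overlapped, and the array does not separate the spliced form. Herpud1, a member of the ER degradation complex with the ERSE-II shown above, was at -0.01, 0.03, -0.01 and 0.01 in Bl6, at 0.15, 0.06, 0.27 and -0.04 in CSS1 and at -0.02, 0.15, 0.06 and 0.22 in CSS2. The difference was 0.11 ± 0.07 in CSS1 and 0.10 ± 0.07 in CSS2 (SE, limma adjusted p = 0.669 and 0.762), and in each strain 3 of 4 mice lay above all Bl6 mice.

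The pair on the PERK branch, Atf4 and its target Ddit3, had opposite signs in CSS1. Ddit3, which encodes CHOP, was at 0.03, 0.00, 0.00 and -0.10 in Bl6, at 0.15, 0.19, 0.09 and 0.21 in CSS1 and at 0.25, 0.15, -0.02 and 0.06 in CSS2. All CSS1 mice lay above all Bl6 mice, and the CSS2 mice overlapped both. The difference was 0.18 ± 0.06 in CSS1 (SE, limma adjusted p = 0.175) and 0.13 ± 0.06 in CSS2 (adjusted p = 0.516). Atf4, the transcription factor made when PERK slows translation, was at -0.04, 0.05, -0.01 and 0.12 in Bl6, at -0.18, -0.47, 0.07 and -0.20 in CSS1 and at 0.00, 0.15, -0.01 and 0.18 in CSS2. The difference in CSS1 was -0.23 ± 0.09 (SE, limma adjusted p = 0.374), and it was -0.13 without CSS1 mouse 6 and -0.33 without CSS1 mouse 9. On the second Atf4 probe, also at -0.23, all CSS1 mice (-0.24 to -0.16) lay below all Bl6 mice (-0.13 to 0.15), and limma's adjusted p was 0.07. Since ATF4 is regulated mainly in translation, its transcript is an incomplete measure of that branch.

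**Figure D4:**
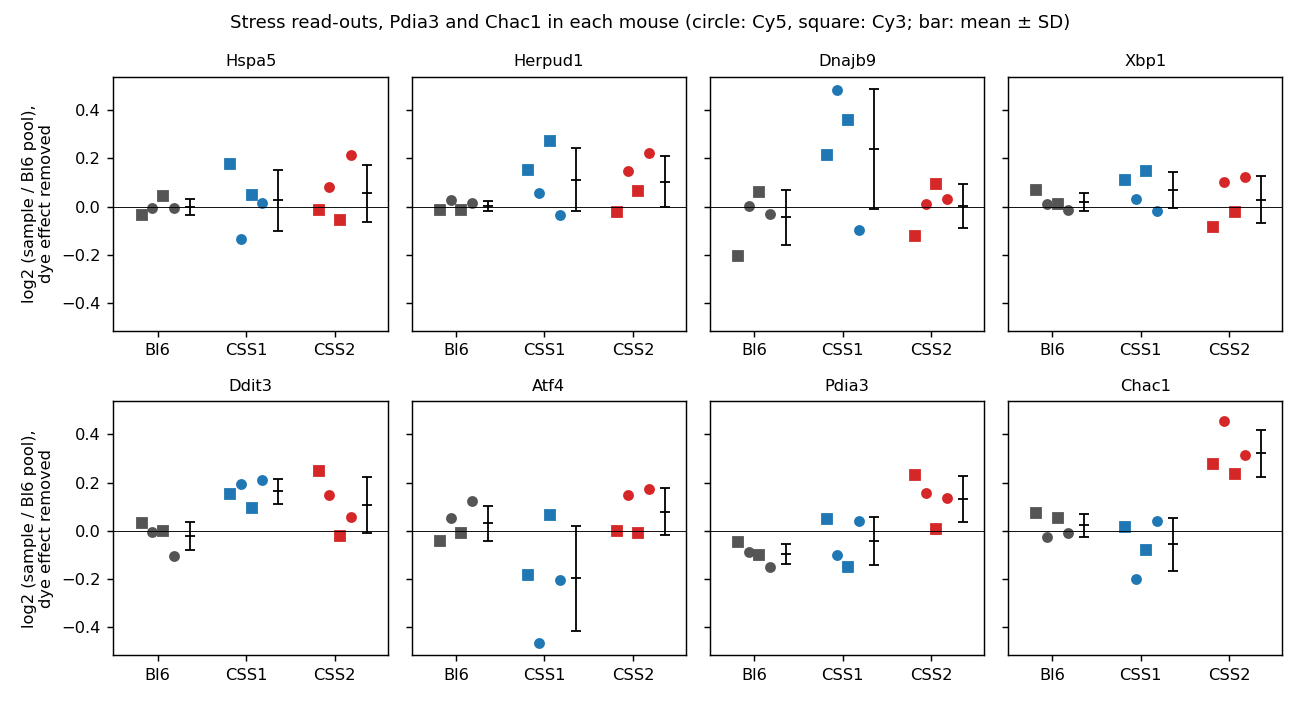
Log2 ratio of sample over Bl6 pool for 6 stress read-outs, Pdia3 and Chac1 in each mouse, by strain, with circles for samples in Cy5, squares for Cy3 and bars for mean ± SD (n = 4). Hspa5 and Xbp1 overlap in all 3 strains, while the CSS2 mice lie above all Bl6 mice for Pdia3 and Chac1.

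Groups of 4 mice that did not overlap were 3 of 37 in CSS1 against Bl6 (Sec61b, Sec11a and Ddit3), where 8.63% of all genes did not overlap. They were 3 of 37 in CSS2 against Bl6 (Dnajb11, Pdia3 and Dnajc10), against 7.18%, and 2 of 37 in CSS1 against CSS2 (Sec11a and Dnajc10), against 6.07%. These counts are near the background.

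The 6 members with an ERSE in the promoter window, as shown above, had differences from -0.02 to 0.11 in CSS1, with a median of 0.03, and from 0.03 to 0.08 in CSS2, with a median of 0.06. None passed. Their 95% intervals together ran from -0.18 to 0.24 in CSS1 and from -0.12 to 0.22 in CSS2.

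Of 91 other genes of the same pathway listed by role, 87 were measured, and the other 4 were not analysed here. None passed in CSS1 or in CSS2 against Bl6, where 11 and 9 of 87 had an unadjusted p below 0.05, near the 12.8% and 9.83% of all genes. Chac1 passed in CSS1 against CSS2, and 1 of 87 is near the 0.97% of all genes that did. It encodes an enzyme that breaks down glutathione, is a target of ATF4 and CHOP, and lies on chromosome 2. It was at 0.07, -0.03, 0.05 and -0.01 in Bl6, at 0.02, -0.20, -0.08 and 0.04 in CSS1 and at 0.28, 0.46, 0.24 and 0.32 in CSS2, where all mice lay above the other 8. CSS1 minus CSS2 was -0.38 ± 0.06 (SE, limma adjusted p = 0.0123). That call was lost with median centring (adjusted p = 0.141) and when Bl6 was left out of the fit (adjusted p = 0.0601). The difference of CSS2 from Bl6, 0.30 ± 0.06 (SE, limma adjusted p = 0.0517), just missed the threshold and passed under 6 alternatives. The 10 genes of the oligosaccharyltransferase, which adds N-glycans, all lay below Bl6 in CSS1, with differences from -0.17 to -0.01. In CSS2, 4 of 10 lay above Bl6. Of all genes, 48.7% lay above Bl6 in CSS1 and 52.5% in CSS2. The median of the 10 was -0.06 in CSS1 and -0.02 in CSS2. Their values come from the same mice and are not independent, and 2 of 10 had an unadjusted limma p below 0.05 in CSS1. The remaining lists had medians from -0.06 in oxidative folding (10 genes) to 0.02 in membrane insertion (13 genes) in CSS1, and from 0.02 in oxidative folding to 0.07 in chaperone cofactors (11 genes) in CSS2. Glycoprotein folding (8 genes), degradation (17) and other stress response genes (18) lay between.

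Markers of other cell types were set beside these values. The median over 9 mature oligodendrocyte markers in single mice ran from -0.29 to 0.24 in Bl6, from 0.44 to 0.74 in CSS1 and from 0.36 to 0.88 in CSS2, and 5 and 4 of the 9 passed as higher. The 8 astrocyte markers ran from -0.13 to 0.07, from 0.16 to 0.33 and from 0.17 to 0.22, and 3 and 1 passed. Choroid plexus, a secretory epithelium, had markers within -0.11 to 0.07 of Bl6 in both strains and none of 7 passed. Of 6 microglia, 6 vascular and 3 plasma cell markers, 1 each passed in CSS1 (Ctss and Ighm higher, Rgs5 lower) and none in CSS2, and of 6 meningeal and 9 hippocampal neuron markers none did in either strain. Among the 6 vascular markers, 5 lay within 0.2 of Bl6 in CSS1 and the lowest was at -1.24. The median over the 6 meningeal markers still ran lower in CSS2 mice, from -0.235 to -0.122, than in Bl6 mice, from -0.08 to 0.09. In CSS1 mice it ran from -0.185 to -0.01 and overlapped Bl6. The part of these markers in the small shifts of the ER genes was not tested. In bulk tissue, a change in the number of cells of a type and a change in RNA per cell cannot be told apart.

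**Figure D5:**
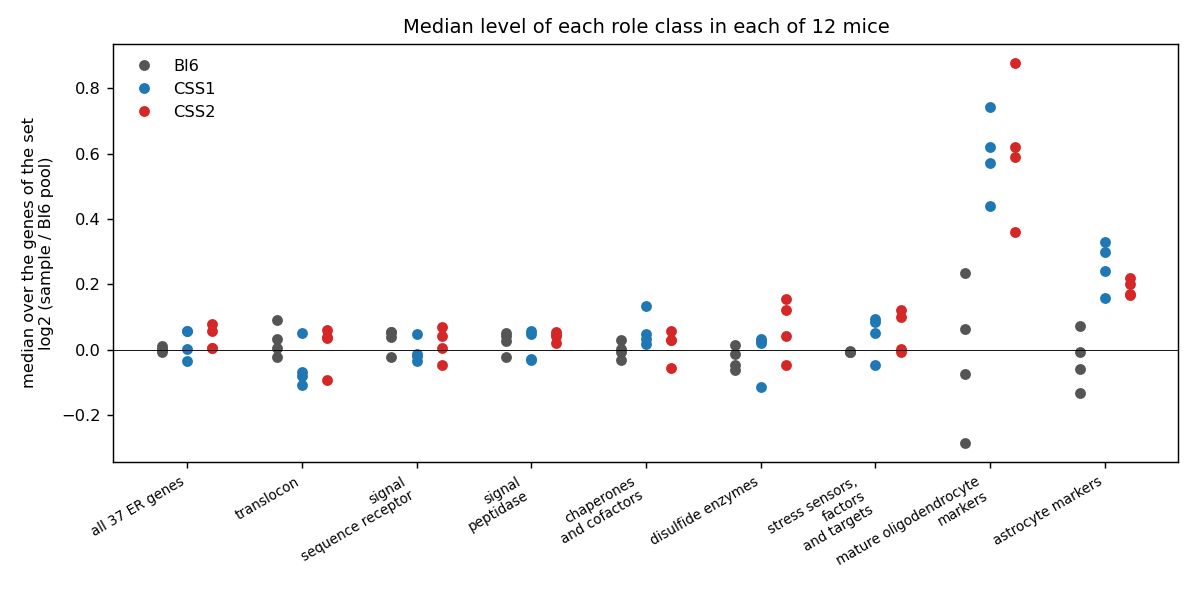
Median log2 ratio of sample over Bl6 pool in each of 12 mice (1 point per mouse, coloured by strain) for all 37 ER genes, their 6 role classes, and markers of mature oligodendrocytes and astrocytes. The medians of all 37 genes stay between -0.04 and 0.08, while those of the oligodendrocyte markers reach 0.74 in CSS1 and 0.88 in CSS2.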

How the data were processed

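RNA of 12 mice was measured on 2-colour arrays. The deposited scanner files hold the intensity of each spot in Cy5 and Cy3 (mean foreground, median background). The deposited value table holds normalized log2 values by a method the labels do not give. It ran with the scanner's Cy5 over Cy3 ratio on 6 of 6 Cy5-labelled samples and against it on 6 of 6 Cy3-labelled ones, so it is sample over pool. Its column medians were -0.00339, 0.00139, -0.00359 and 0.00585 (Bl6 mice 2, 5, 8, 11), -0.000279, -0.00358, -0.00502 and 0.00337 (CSS1 3, 6, 9, 12) and 0.00493, -0.00155, -1.02e-05 and 0.0011 (CSS2 1, 4, 7, 10). Its strain differences were 1.03 and 1.02 times those found here, so the base is log2.

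Spots were corrected by normexp (offset 50) and global loess, with control and quality probes given weight 0, in limma 3.58.1 under R 4.3.3. Gene probes above 6.23 in mean log2 intensity, the 95th percentile of 1580 control spots at background level, were kept. limma was fitted with strain and dye orientation to all 12 arrays (8 residual and 3.21 prior degrees of freedom), and was tested on simulated data. Each mouse is an individual per the labels, and the number of mice limits the precision. Gene symbols came from the platform annotation and chromosomes from the GRCm38.p6 gene table. Members, lists and tests were chosen with earlier results of these data known. Members named with every mouse's value were those past the threshold, the smallest p per role class in each strain, 6 stress read-outs, and those on chromosomes 1 and 2. Alternatives were median centring, scale normalization, no background subtraction, no dim filter, no dye term, a block of consecutive mouse numbers, 2 strains only, array weights, the deposited log2 table, the mean over a gene's probes, and each mouse left out.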

Additional observations from a re-analysis of the deposited data

Results flagged for a closer look

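A single mouse stood apart from the other 3 of its strain, by Dixon's test at the 95% level, in 5 of 111 strain groups over the 37 genes, and chance gives about 1 in 20. Ssr1 was at -0.126 in CSS2 mouse 1, against 0.04 to 0.05 in the others, and Calr was at 0.0882 in the same mouse, against -0.09 to -0.07. In Bl6 mouse 8, Spcs2 was at -0.0856, against 0.05 to 0.07, and Calr at -0.0375, against -0.11 to -0.10. Dnajb11 was at -0.147 in Bl6 mouse 11, against 0.00 to 0.01. CSS2 mouse 1 had the lowest share of probes above background, 89%, and its part in the values of Ssr1 and Calr was not tested.

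In CSS1 against CSS2, 1 of the 37 genes (2.7%) and 1 of the 87 other pathway genes (1.15%) passed, against 0.97% of all genes. The second share is near the background. Each count is a single gene, so neither share tells its list apart from all genes. Dnajc10 was higher in CSS1 than in CSS2 by 1.07 on its brightest probe (limma adjusted p = 6.95e-05) and Chac1 was lower by -0.377 (adjusted p = 0.0123).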

How the results depend on the processing

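Dnajc10 passed in CSS2 against Bl6 and in CSS1 against CSS2 under all 22 alternatives, at -1.16 to -0.46 and 0.39 to 1.12, with both smallest sizes from the mean over its probes. All 22 use its brightest probe, alone or in that mean, so they do not test the fall apart from that probe. The count of member genes past the threshold in CSS1 was 0 to 1 with a mouse left out (Dnajb9 without CSS1 mouse 12, Sec61b without CSS2 mouse 4) and 0 otherwise. In CSS2 it was 2 with consecutive mouse numbers as a block, which added Pdia3, and 1 otherwise. The median member difference was 0.0457 in CSS1 with array weights, and with median centring 0.0907 in CSS2 and -0.0567 in CSS1 against CSS2. With a mouse left out it ran from -0.00419 to 0.0349 in CSS1, from 0.0211 to 0.0623 in CSS2 and from -0.039 to -0.0136 in CSS1 against CSS2, and with the mean over probes it was 0.00109 in CSS1 and 0.0286 in CSS2. The count of other pathway genes in CSS1 was 1 with array weights and 0 to 2 with a mouse left out. In CSS2 it was 1 with array weights, the authors' deposited values, the mean over probes or only 2 strains, and 0 to 1 with a mouse left out, from Chac1 (without CSS1 mouse 6 or 12). In CSS1 against CSS2 it was 0 with median centring and with only 2 strains. The cause was not tested. Of 1056 recomputed differences of single genes, 1029 moved by less than their standard error or kept their call, and no called one changed sign. Some alternatives cannot move a difference in this balanced design, only its adjusted p, and were counted as well. They are no dim filter, no dye term, the block, 2 strains only, and a mouse of the third strain left out. A called difference that kept its call was counted whatever its size, as Dnajc10 was at -0.46. The strains share no mouse numbers and the labels pair no mice. Consecutive numbers (each run of 3 holds 1 mouse per strain, all of 1 dye) were tried as the block above, and Pdia3 was the only named gene whose call it changed. A slide or scan block was not run, as the files used here give none.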
